A study of Mus musculus with 30 samples.

Results

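The genes described here are 9 members of the machinery that methylates DNA and silences retrotransposons in mammals: Dnmt1, Dnmt3a, Uhrf1, Setdb1, Trim28, Atrx, Smchd1, Mbd1 and Mbd3. They were chosen by symbol, out of 18194 genes named by the annotation of the array, and all of their probe sets were taken. A probe set is the group of short oligonucleotides on the array that reports a transcript. The 9 genes have 30 probe sets, of which 21 passed the filter on low signal and were tested, with at least 1 for every gene. Where a gene has several, the probe set with the highest mean signal stands for it.

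The series holds brain, kidney and liver RNA from 10 male mice of genotype Avy/a, taken at day 22, with 1 Affymetrix array for each of the 30 samples. Avy, called viable yellow, is an allele of the agouti gene (symbol a) that came up in the C3H/HeJ strain. All mice carry it opposite the nonagouti allele a, come from an inbred colony kept heterozygous by sibling mating and received no treatment, so no wild-type group exists here. Coats were graded as yellow, slightly mottled, mottled, heavily mottled or pseudoagouti. Each of these 5 classes holds 2 mice, to which the labels give the numbers 1 and 2. The labels do not say what the number stands for, and it is balanced over coat classes.

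In mammals, methyl groups on CpG dinucleotides are set by the de novo enzymes of the DNMT3 family and copied at replication by DNMT1, which UHRF1 brings to hemimethylated sites. Retrotransposons are also held silent through TRIM28, a scaffold recruited by KRAB zinc finger proteins, and SETDB1, the histone H3 lysine 9 methyltransferase that it brings. In Avy an intracisternal A particle, which is a retrotransposon, lies upstream of the agouti gene, and its methylation differs among mice of 1 genotype and goes with the coat from yellow to pseudoagouti. Levels below are MAS5 signal, a linear brightness scaled to the same mean on each array, and differences are on the scale of log2(signal + 16), which understates the change of low signals. Signals of different probe sets are not compared with each other, since their oligonucleotides differ.

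The tissue labels held for 8 of 8 brain, 7 of 7 kidney and 7 of 7 liver markers, each higher in its own tissue than in both others. Median signal per array was 138.2 to 205.3 in brain, 114.3 to 152.6 in kidney and 105.2 to 144.6 in liver. The 7 liver markers summed to 1030 to 32100 in brain, mostly through Ttr, which choroid plexus also makes, and to 8660 to 22900 in kidney. Markers of other cell types also differed between tissues. In brain, kidney and liver, lymphoid and myeloid markers summed to 6310 to 10000, 7990 to 13300 and 8350 to 12300, and blood and erythroid markers to 493 to 1330, 1910 to 5370 and 2360 to 11700. Adipose markers summed to 120 to 551, 7920 to 24200 and 1870 to 3920, and choroid plexus markers, several of which kidney also makes, to 673 to 2520, 18500 to 32200 and 2040 to 3960. Most of the adipose sum was Fabp4, with means of 12000 in kidney and 2490 in liver, against 1110 and 22.9 for Adipoq. In liver, most of the choroid plexus sum was Aqp1, with a mean of 2650. The sums therefore do not measure the amount of fat or choroid plexus in liver. The part of these cell types in the tissue differences was not tested. In whole tissue, fewer cells of a type and less RNA per cell cannot be told apart. The labels name separate mice, so the spread is between animals.

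**Figure D1:**
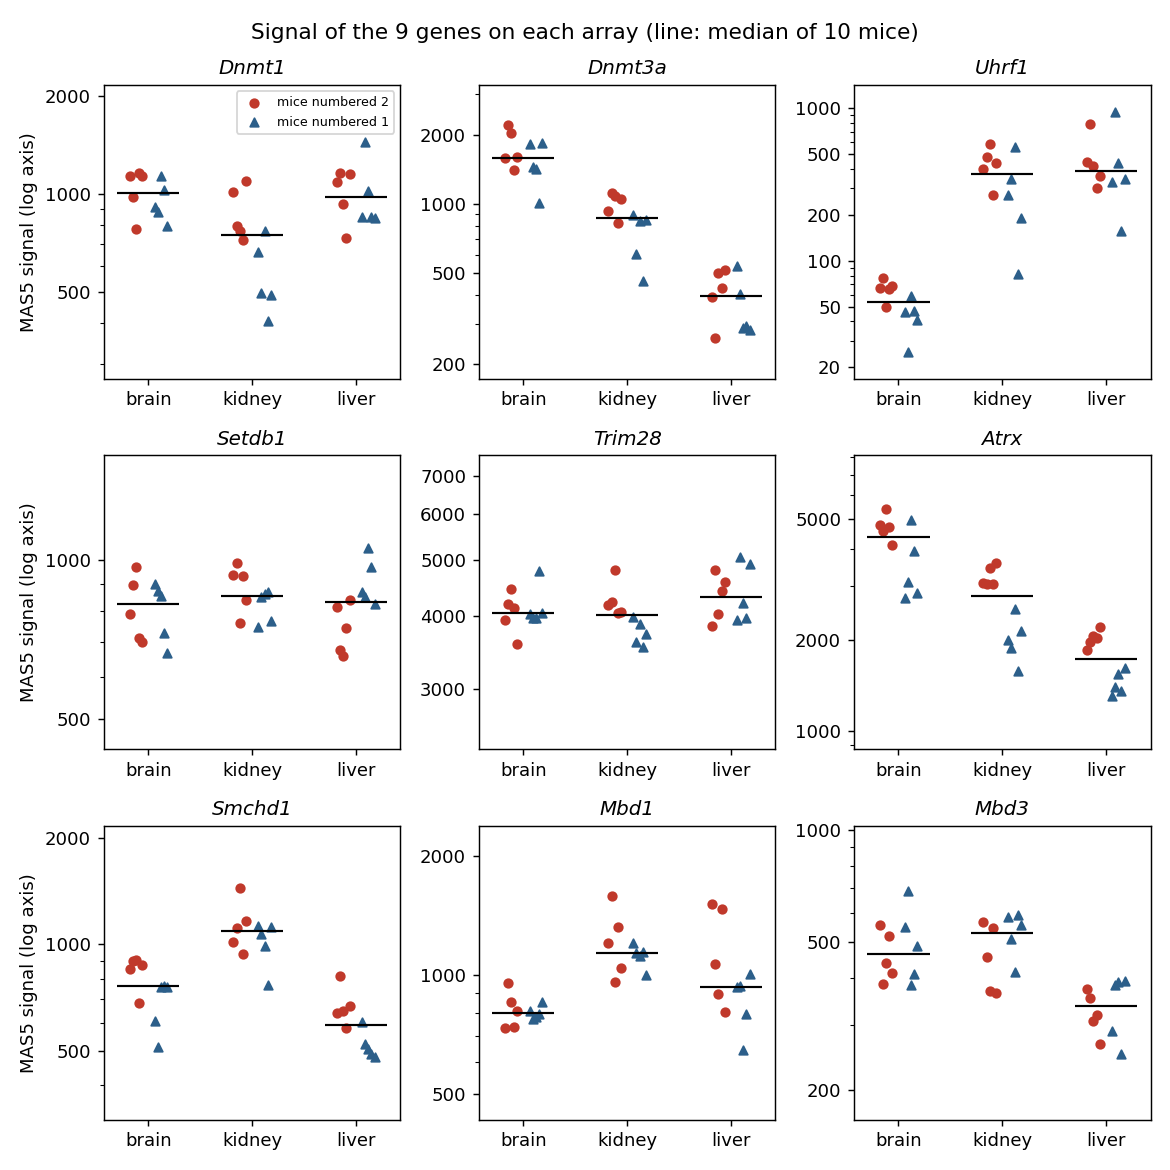
Signal of the probe set that stands for each of the 9 genes on a log axis, with 1 point per array and a line at the median of 10 mice. Uhrf1 sits at 25.3 to 76.8 in brain, below all 20 kidney and liver arrays, while Setdb1 and Trim28 overlap over the tissues, and Atrx is higher in mice numbered 2 (circles) than in mice numbered 1 (triangles) in kidney and liver.

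The promoters of Dnmt1 and Uhrf1 are shown because these genes varied together with cell cycle genes in kidney and liver, as described below. Each window runs from 250 bases before to 50 bases after a transcript start in RefSeq on GRCm38.p6, written on the strand of the gene. Capitals mark matches to letters that E2F factors, regulators of replication genes, can bind: TTTCGCGC, TTTGGCGC, TTTCCCGC or TTTGCCGC on either strand.
Dnmt1, chr9:20952574-20952873, minus strand: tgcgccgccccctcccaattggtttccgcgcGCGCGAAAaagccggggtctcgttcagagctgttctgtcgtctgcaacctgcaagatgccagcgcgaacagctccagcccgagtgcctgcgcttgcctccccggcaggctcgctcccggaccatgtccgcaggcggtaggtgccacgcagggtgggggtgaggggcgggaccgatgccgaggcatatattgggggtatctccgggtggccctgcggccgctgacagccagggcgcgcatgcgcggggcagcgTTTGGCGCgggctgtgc
Uhrf1, chr17:56304063-56304362, plus strand: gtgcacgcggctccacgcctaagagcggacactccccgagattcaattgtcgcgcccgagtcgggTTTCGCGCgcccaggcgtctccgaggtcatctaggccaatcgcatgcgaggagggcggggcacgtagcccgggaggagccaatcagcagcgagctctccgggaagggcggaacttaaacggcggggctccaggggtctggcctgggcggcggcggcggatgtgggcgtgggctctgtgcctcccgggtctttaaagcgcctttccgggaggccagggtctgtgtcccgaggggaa
The Dnmt1 window holds 2 matches (GCGCGAAA and TTTGGCGC) and the Uhrf1 window holds 1 (TTTCGCGC). Dnmt1 has 2 other windows, with 12 and 2 CpG dinucleotides, and Uhrf1 has another with 12, and none of these holds a match. The printed windows held the only matches in 13 windows of 8 of the genes, and 2.26% of all 32851 RefSeq windows hold at least 1. Each printed window has 33 CpG dinucleotides, against a median of 7 over all windows, and among all windows with at least 20 the share with a match is 5.15%. The letters describe the sequence only and do not show binding.

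Of the 3 genes here that act in setting or copying DNA methylation (Uhrf1, Dnmt3a and Dnmt1), Uhrf1 and Dnmt3a differed most between tissues, in opposite directions. Uhrf1, the partner of DNMT1, had a signal of 25.3, 54.05 and 76.8 in brain (lowest, median and highest of 10 mice), 82.2, 371 and 579 in kidney, and 156, 388 and 947 in liver. Brain was below both other tissues in 10 of 10 mice, with no overlap. The log2 difference was -2.62 ± 0.215 for brain minus liver (SE, adjusted p = 2.20e-11) and -2.30 ± 0.215 for brain minus kidney (adjusted p = 3.73e-10). Between kidney and liver it was -0.32 and did not pass the test (adjusted p = 0.181). Uhrf1 passed the filter through kidney and liver, and its brain signal lay below the median of the brain arrays. Its other probe set, 1415811_at, was too dim to be tested, with medians of 12.5 in brain, 92.75 in kidney and 161 in liver.

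Dnmt3a, the de novo methyltransferase of somatic cells, ran the other way. Its signal was 1011, 1589 and 2197 in brain (lowest, median and highest), 459, 868 and 1117 in kidney, and 259, 397 and 535 in liver. Brain and liver did not overlap, and kidney lay between them. Brain was higher than liver by 2.04 ± 0.121 on the log2 scale, 4.11-fold (SE, adjusted p = 2.90e-14), and kidney was higher than liver by 1.12 ± 0.121 (adjusted p = 8.93e-09), each in 10 of 10 mice. The other 3 tested probe sets were also higher in brain than in liver, by 1.28 to 1.85. They did not give the same distance between brain and kidney: it was 0.92 (adjusted p = 1.69e-07) at the probe set with the highest signal and 0.02 (adjusted p = 0.893) at 1423066_at. Another probe set, 1423064_at, was too dim to be tested.

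For Dnmt1, the maintenance methyltransferase, the direction depended on the probe set. At 1422946_a_at its signal was 778, 1007 and 1162 in brain, 405, 745 and 1096 in kidney, and 734.5, 979 and 1445 in liver. There kidney was lowest, with a log2 difference of 0.50 for brain minus kidney (adjusted p = 0.000811) and -0.51 for kidney minus liver (adjusted p = 0.000887), while brain and liver differed by -0.01 (adjusted p = 0.959). At 1435122_x_at liver was lowest instead, with 0.67 for brain minus liver (adjusted p = 3.73e-06) and 0.48 for kidney minus liver (adjusted p = 0.000408). The suffix _x_at marks oligonucleotides that may match other transcripts too, and the remaining probe set, 1447877_x_at, was too dim to be tested.

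Uhrf1 and Dnmt1 varied between mice with genes of the cell cycle in kidney and liver. The list of proliferation genes used here, among them Mki67, Top2a and the MCM helicase genes, has 17 with a probe set. Their summed signal was 2640 to 4130 in brain, 8700 to 20100 in kidney and 9460 to 31800 in liver, and of the 15 tested, 15 were lower in brain than in liver by at least 1 log2 and 13 lower in brain than in kidney, against 20.4% and 20.7% of all tested probe sets. Of these 15, 10 lay below the filter on low signal in brain and were tested only because they passed it in kidney or liver, so these counts are a description. The lowest sums in kidney and liver, 8700 and 9460, belonged to heavily mottled mouse 1, which also had the lowest Uhrf1 signals there, 82.2 and 156. The highest sums in liver, 31800 and 30400, belonged to both slightly mottled mice, which had the highest Uhrf1 signals, 947 and 792.5. With number means removed, the median correlation of Uhrf1 with the 15 genes over 10 mice was 0.87 in kidney and 0.90 in liver, with all 15 above 0, and 0.16 in brain, with 10 above 0. For Dnmt1 the medians were 0.61 in kidney, 0.81 in liver and 0.01 in brain. With the number means kept they were 0.78, 0.86 and 0.12 for Uhrf1 and 0.42, 0.78 and 0.15 for Dnmt1 in kidney, liver and brain, with 12 of 15 above 0 for Dnmt1 in kidney. Against all tested probe sets, with number means removed, the medians lay between -0.04 and 0.07. They were not computed with the number means kept. These correlations are descriptions over arrays that share mouse and scaling.

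**Figure D2:**
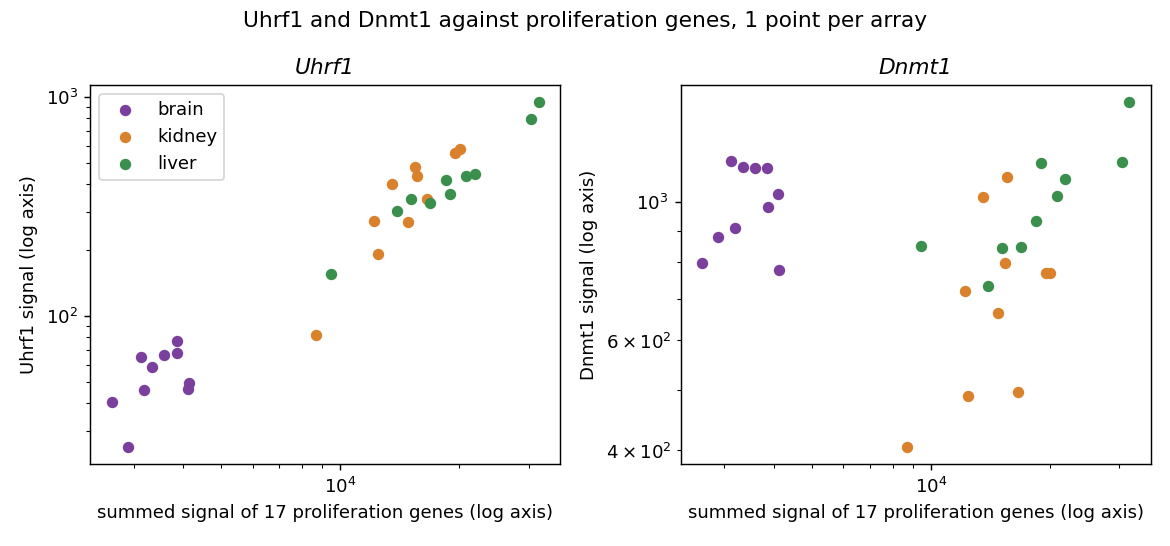
Uhrf1 signal (left) and Dnmt1 signal (right) against the summed signal of 17 proliferation genes, both on log axes, with 1 point per array coloured by tissue. The brain arrays sit at sums of 2640 to 4130, and in liver Uhrf1 is highest, at 947, at the highest sum, 31800.

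Of the silencers of heterochromatin, Atrx was highest in brain and Smchd1 in kidney, while Setdb1 and Trim28 did not pass the test between tissues at the probe sets that stand for them, as deposited. Atrx, an X-linked chromatin remodeler that deposits histone H3.3 at repeats with DAXX, had a signal of 2752, 4351 and 5408 in brain (lowest, median and highest), 1579, 2794 and 3593 in kidney, and 1308, 1733 and 2210 in liver. Brain and liver did not overlap. The log2 difference was 1.23 ± 0.084 for brain minus liver (SE, adjusted p = 5.04e-13), 0.65 for brain minus kidney (adjusted p = 9.95e-08) and 0.57 for kidney minus liver (adjusted p = 1.30e-06). Atrx has 7 tested probe sets, and 6 of them were higher in brain than in liver, by 0.91 to 1.39. The seventh, 1420945_at, differed by 0.18 (adjusted p = 0.136) and was lower in kidney than in liver, at -0.73 (adjusted p = 3.60e-06), so the order of kidney and liver depends on the probe set.

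Smchd1, a noncanonical SMC protein of X inactivation and imprinted clusters, had a signal of 513, 762 and 904 in brain, 766, 1090 and 1439 in kidney, and 480, 590 and 816 in liver. Kidney was above liver in 10 of 10 mice, by 0.84 ± 0.091 on the log2 scale (SE, adjusted p = 1.12e-08). Brain was below kidney in 10 of 10 mice, at -0.49 (adjusted p = 2.71e-05). Brain minus liver was 0.34 (adjusted p = 0.00130), but 0.06 (adjusted p = 0.537) after quantile normalisation over all arrays. A second probe set, 1442497_at, was too dim to be tested.

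Setdb1 had a signal of 665, 824 and 969 in brain (lowest, median and highest), 747, 856 and 987 in kidney, and 656, 832 and 1054 in liver. All 3 tissues overlapped, and the log2 differences were between -0.08 and 0.05, with adjusted p of 0.403 to 0.736. These differences are smaller than their SE of 0.092. Its 2 other probe sets were too dim to be tested. Trim28 had a signal of 3581, 4047 and 4801 in brain, 3536, 4027 and 4809 in kidney, and 3844, 4317 and 5060 in liver, with log2 differences of -0.13 to 0.04 and adjusted p of 0.124 to 0.631. Its other probe set, 1415869_a_at, was higher in brain than in liver by 0.48 (adjusted p = 4.44e-06) and higher in kidney than in liver by 0.32 (adjusted p = 0.000879). The probe set that stands for Trim28 carries the suffix _x_at as well. After quantile normalisation over all arrays, brain minus liver was -0.27 for Setdb1 (adjusted p = 0.00793) and 0.26 for Trim28 (adjusted p = 0.00435), and brain minus kidney of Trim28 was 0.21 (adjusted p = 0.0211).

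Both methyl-CpG-binding domain genes differed between tissues by less than 1 log2. Mbd1, a repressor that binds methylated CpG, had a signal of 732, 801 and 953 in brain (lowest, median and highest), 959, 1138 and 1587 in kidney, and 645, 933 and 1513 in liver. Brain and kidney did not overlap at this probe set, with a log2 difference of -0.51 ± 0.106 (SE, adjusted p = 9.85e-05). At 1437061_at the mean log2 value was 8.84 in brain and 8.69 in kidney, the other direction. With the median over the tested probe sets of Mbd1, brain minus kidney was -0.18 (adjusted p = 0.103). Brain minus liver was -0.27 (adjusted p = 0.0228), but 1437061_at gave 0.45 (adjusted p = 0.00362), and its other 3 probe sets were too dim to be tested. Mbd3, a subunit of the NuRD deacetylase complex whose mammalian protein binds methylated CpG weakly, had a signal of 384, 464 and 684 in brain, 365, 527 and 591 in kidney, and 250, 336 and 392.5 in liver. It was lower in liver, with log2 differences of 0.51 for brain minus liver (adjusted p = 8.61e-05) and 0.55 for kidney minus liver (adjusted p = 5.22e-05). After quantile normalisation these were 0.15 (adjusted p = 0.233) and 0.29 (adjusted p = 0.0266).

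**Figure D3:**
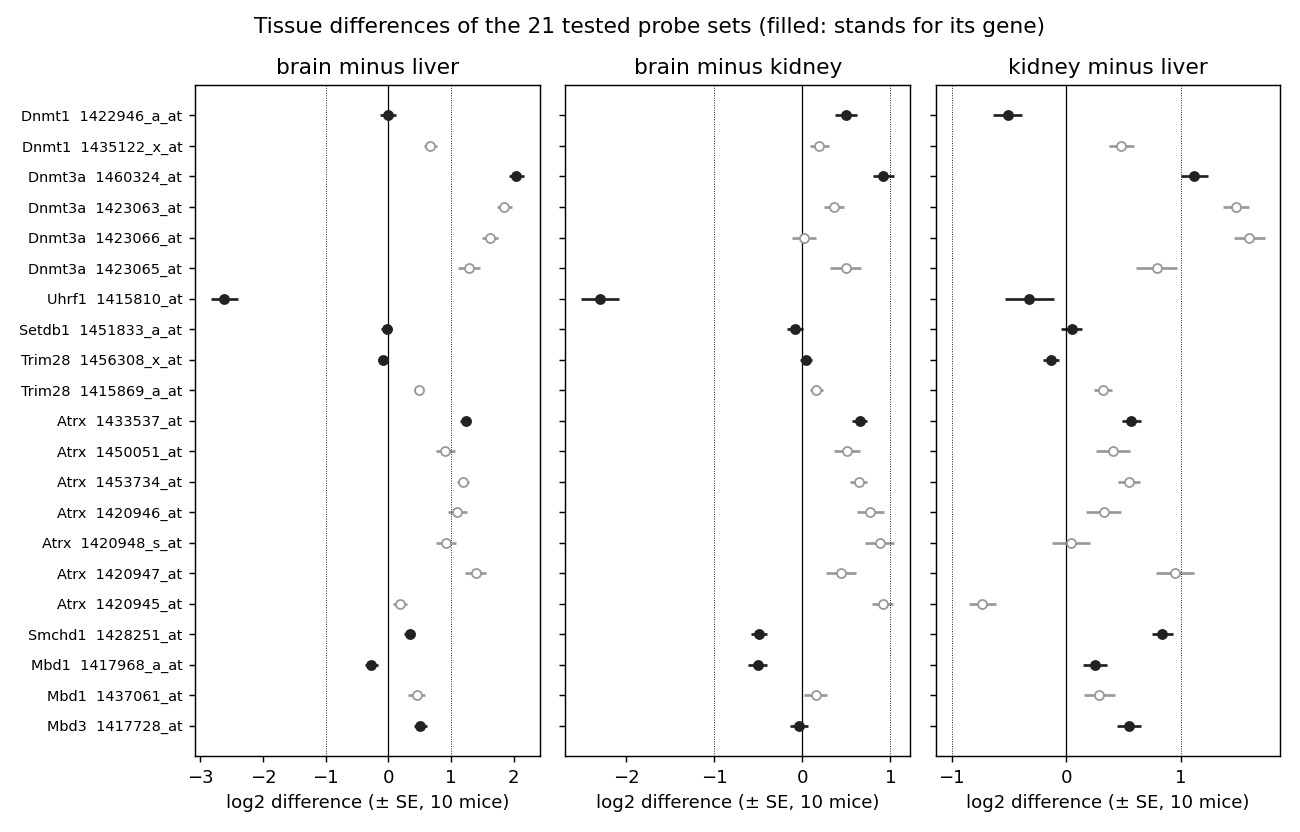
Log2 difference between tissues (± SE, 10 mice) of the 21 tested probe sets, filled where the probe set stands for its gene, with dotted lines at 1 and -1. Uhrf1 lies at -2.62 and Dnmt3a at 2.04 for brain minus liver, and probe sets of Dnmt1, Trim28, Mbd1 and Atrx fall on both sides of 0 in at least 1 contrast.

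Counting genes with an adjusted p under 0.05 and a difference of at least 1 log2, 2 of 9 were higher in brain than in liver (Dnmt3a and Atrx) and 1 was lower (Uhrf1), against 30.2% higher and 20.4% lower of all 22519 tested probe sets. Between brain and kidney, 0 of 9 were higher and 1 was lower (Uhrf1), against 21.9% and 20.7%. Between kidney and liver, 1 of 9 was higher (Dnmt3a) and 0 lower, against 18.6% and 9.85%. These shares rest on 9 genes, while the background counts probe sets. Of the 21 tested probe sets, 8 were higher and 1 lower in brain than in liver by the same rule. Brain against kidney gave 0 higher and 1 lower, and kidney against liver 3 higher and 0 lower. An adjusted p under 0.05 alone gave 15 higher and 2 lower, 11 and 3, and 13 and 2, in the same order. Many of these probe sets share a gene, since Atrx has 7 and Dnmt3a has 4. With the p-value alone, 4 of 9 were higher and 2 lower in brain than in liver (background 46.4% and 38.1%), 3 higher and 3 lower in brain than in kidney (38.6% and 40.9%), and kidney against liver gave 5 higher and 1 lower (42.4% and 28.5%). The median log2 difference of the 9 genes was -0.01, -0.04 and 0.25 for brain minus liver, brain minus kidney and kidney minus liver, and that of all tested probe sets 0.15, -0.03 and 0.13.

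Quantile normalisation over all arrays moved the median of all probe sets by -0.26, -0.10 and -0.11 in these contrasts, so small differences depend on the scaling. Relative to the median of all probe sets, brain minus liver of Dnmt3a was 1.89 as deposited and 1.91 after quantile normalisation, and that of Uhrf1 was -2.77 and -2.87. For Trim28 the same quantity was -0.24 and 0.38, which differ in sign. For Setdb1 it was -0.18 and -0.16.

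Of 53 other genes of these pathways, 47 have a probe set and 37 were tested. By the same rule of 1 log2, 7 were higher and 3 lower in brain than in liver, against 30.2% and 20.4% of all tested probe sets. In brain against kidney 1 was higher and 6 lower, against 21.9% and 20.7%. Kidney against liver gave 5 higher and 2 lower, against 18.6% and 9.85%. Dnmt3b, the other de novo methyltransferase, had a mean signal of 69.8 ± 33.5 in brain, 225 ± 78.2 in kidney and 484 ± 190 in liver (SD, n = 10), a log2 difference of -2.54 for brain minus liver (adjusted p = 6.62e-12). Its order over the tissues was opposite to that of Dnmt3a, and it passed the filter on low signal through liver alone. Cbx5, the heterochromatin protein HP1 alpha, was higher in brain than in liver by 2.29 (adjusted p = 3.18e-19), and Zbtb4, which binds methylated CpG, by 2.35 (adjusted p = 1.80e-17). Zc3hav1, the antiviral zinc finger protein ZAP, was lower in brain than in liver at -3.08 (adjusted p = 1.53e-17). Its mean signal was 168 in brain, 573 in kidney and 1490 in liver, so it passed the filter on low signal through kidney and liver only. Of the NuRD list, 3 of 11 were higher in brain than in liver by the rule (Chd3, Gatad2b and Hdac2) and 0 lower, against 30.2% and 20.4% of all tested probe sets. With the p-value alone 5 were higher and 5 lower, against 46.4% and 38.1%. Of the HUSH complex 0 of 4 passed the rule, against 30.2% higher and 20.4% lower of all tested probe sets. By the p-value alone 4 of 4 were higher in brain than in liver, by 0.37 to 0.66, against 46.4%. These small differences were not recomputed after quantile normalisation.

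The next comparison asked whether the genes differ between mice in the same way in all 3 tissues, as a variable epiallele would. By limma's moderated F-test over the 10 mice, 1 of 9 genes (Atrx, adjusted p = 0.00405) and 3 of 21 probe sets passed, against 6.80% of all tested probe sets. The other probe sets were 1453734_at of Atrx (adjusted p = 0.00557) and 1423066_at of Dnmt3a (adjusted p = 0.0246), at which heavily mottled mouse 1 was lowest. When the means of both mouse numbers were removed within each tissue, 0 of 21 passed, against 0.417%, and 6 of 21 had an unadjusted p under 0.05, against 15.7%. The adjusted p of Atrx was then 0.408.

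The ratio R compares the spread between mice with the spread between tissues, and the submitters looked for transcripts above 1.5. None of the 9 genes lay above 1.5, against 0.662% of all tested probe sets. R was between 0.35 for Dnmt3a and 1.01 for Setdb1, with a median of 0.423 over all tested probe sets. Trim28 was at 0.99. The SD between mice of the mean log2 signal was 0.083 for Setdb1 and 0.055 for Trim28, at percentiles 1.6 and 0.1 of all tested probe sets. Uhrf1 had the widest spread of the 9 genes, with an SD of 0.482 at percentile 96.9, and its mice covered a 6.06-fold range in kidney on the scale of signal + 16. Its mouse effect did not pass the test (adjusted p = 0.104), though it did without slightly mottled mouse 1 (adjusted p = 0.0439).

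Atrx followed the number in the mouse labels. In liver its signal was 1855, 1968, 2060, 2026 and 2210 in mice numbered 2, against 1308, 1401, 1547, 1360 and 1610 in mice numbered 1, from yellow to pseudoagouti. In kidney it was 3072, 3053, 3438, 3064 and 3593 in mice numbered 2, against 1992, 1872, 2535, 1579 and 2144 in mice numbered 1. In brain it was 4780, 4580, 5408, 4694 and 4121 in mice numbered 2, against 2752, 3097, 4964, 3914 and 2858 in mice numbered 1. Every mouse numbered 2 was above the mouse numbered 1 of its coat class in each tissue, and in liver and kidney the numbers did not overlap. The log2 difference of number 2 minus number 1 was 0.54 ± 0.089 on the mean of 3 tissues (SE, limma adjusted p = 0.00520), 0.48 in liver (adjusted p = 0.00898), 0.69 in kidney (adjusted p = 0.0292) and 0.45 in brain (adjusted p = 0.123).

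Atrx was the only gene of the 9 called on the mean of tissues and in liver, and no gene was lower, against 7.78% higher and 6.31% lower of all tested probe sets on the mean and 4.72% and 5.13% in liver. In kidney 2 of 9 were higher, Atrx and Dnmt1 (0.64, adjusted p = 0.0490), and 0 lower, against 3.86% and 3.46%. The other tested probe set of Dnmt1, 1435122_x_at, gave 0.10 in kidney and did not pass (adjusted p = 0.725). The kidney count was 0 without either yellow, either slightly mottled or either pseudoagouti mouse or without heavily mottled mouse 1, 1 without heavily mottled mouse 2 and 3 without mottled mouse 1. In brain 0 of 9 were called, against 1.22% and 0.750%. At an unadjusted p under 0.05, 5 of 21 probe sets were higher and 1 lower there, against 11.4% and 10.6% of all tested probe sets. The probe sets of Atrx disagreed: 1453734_at was higher by 0.51 on the mean of tissues (adjusted p = 0.0253), and the other 5 ranged from -0.27 to 0.31, none past the test. Of the 37 other pathway genes, 7 were higher and 0 lower in mice numbered 2, among them the methyl-CpG reader Zbtb33 (0.54, adjusted p = 0.00461) and Cbx1, which encodes HP1 beta (0.54, adjusted p = 0.00819). No test of the difference between tissues passed for a member (adjusted p of at least 0.0633, against 4.94% of all probe sets).

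Some technical values of the arrays were also shifted with the number in some tissues, with ranges that overlapped in each; these shifts were not tested. The highest signal of an array was 19007 to 25922 in kidneys of mice numbered 2, against 22991 to 45410 in kidneys of mice numbered 1, and 16761 to 26823 against 23262 to 38492 in their brains. The log2 ratio of the 3 prime to the 5 prime probe sets of Gapdh, a measure of RNA quality, was -0.42 to -0.17 in livers of mice numbered 2, against -0.50 to -0.41 in livers of mice numbered 1. In livers the highest signal was 34084 to 50092 in mice numbered 2 and 39228 to 47341 in mice numbered 1. The Gapdh ratio was -0.34 to 0.02 in kidneys of mice numbered 2, against -0.40 to -0.30 in kidneys of mice numbered 1, and -0.35 to -0.30 against -0.47 to -0.29 in their brains. With the highest signal as a covariate the Atrx difference was 0.34 (adjusted p = 0.670), and with the Gapdh ratio 0.49 (adjusted p = 0.274). Their part in the result was not tested beyond these fits.

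**Figure D4:**
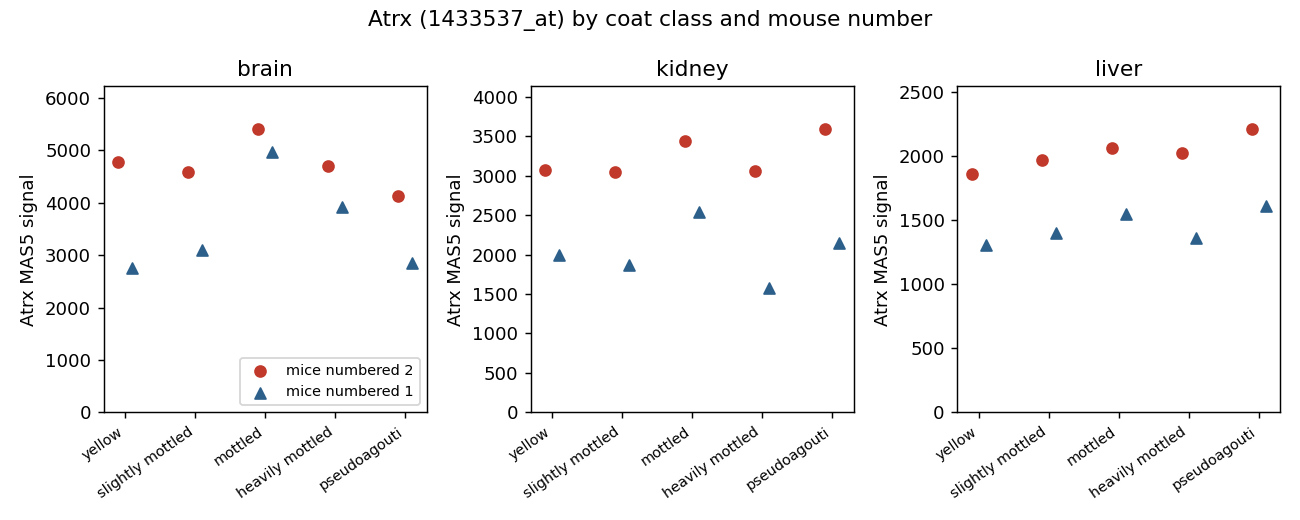
Atrx signal at 1433537_at by coat class, from yellow to pseudoagouti, in brain, kidney and liver, with mice numbered 2 as circles and mice numbered 1 as triangles, 1 point per array. Each circle lies above the triangle of its class, and the coat slope of Atrx on the mean of tissues was 0.03 per step, with a 95% interval of -0.11 to 0.16.

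The coat classes tested whether the machinery differs with the state of the Avy allele. None of the 9 genes or 21 probe sets had a coat slope past the test on the mean of tissues or in any tissue, against 0.00444% of all tested probe sets on the mean and in kidney and 0 in liver and brain. At an unadjusted p under 0.05 there were 0 of 21 in each of these 4 views, where 1.45% to 2.38% of all probe sets had one. Gene a itself had a slope of -0.48 log2 per step from yellow to pseudoagouti on the mean of tissues (adjusted p = 0.0294) and -0.65 in kidney (adjusted p = 0.0338). Its slopes of -0.43 in brain and -0.35 in liver did not pass the test, so a lack of calls in these tissues says little. In kidney its signal was 655 and 722 in yellow mice and 80.3 and 101 in pseudoagouti mice.

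On the mean of tissues the slopes of the 9 genes ran from -0.12 to 0.03 per step. The 95% interval of Dnmt1 was -0.14 to 0.07, of Dnmt3a -0.16 to 0.08, of Setdb1 -0.09 to 0.03, of Trim28 -0.05 to 0.06 and of Atrx -0.11 to 0.16, all short of the slope of a. The widest was that of Uhrf1, -0.31 to 0.06. In liver it averaged 387 ± 82.4 for yellow mice, 870 ± 109 for slightly mottled mice, 428 ± 14.4 for mottled mice, 228 ± 103 for heavily mottled mice and 351 ± 10.9 for pseudoagouti mice (SD, n = 2 each), with no steady order from class to class. On simulated data a slope of 0.25 was recovered in 76.0% of the changed probe sets and a slope of 0.15 in 31.5%. The simulated arrays differed by independent noise only, without differences that the tissues of a mouse share. Recovery in the real data may therefore be lower, and a slope of 0.15 would more often be missed than found with 10 mice. No test of a difference in coat slope between tissues passed for the 21 probe sets (adjusted p = 1 each).

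**Figure D5:**
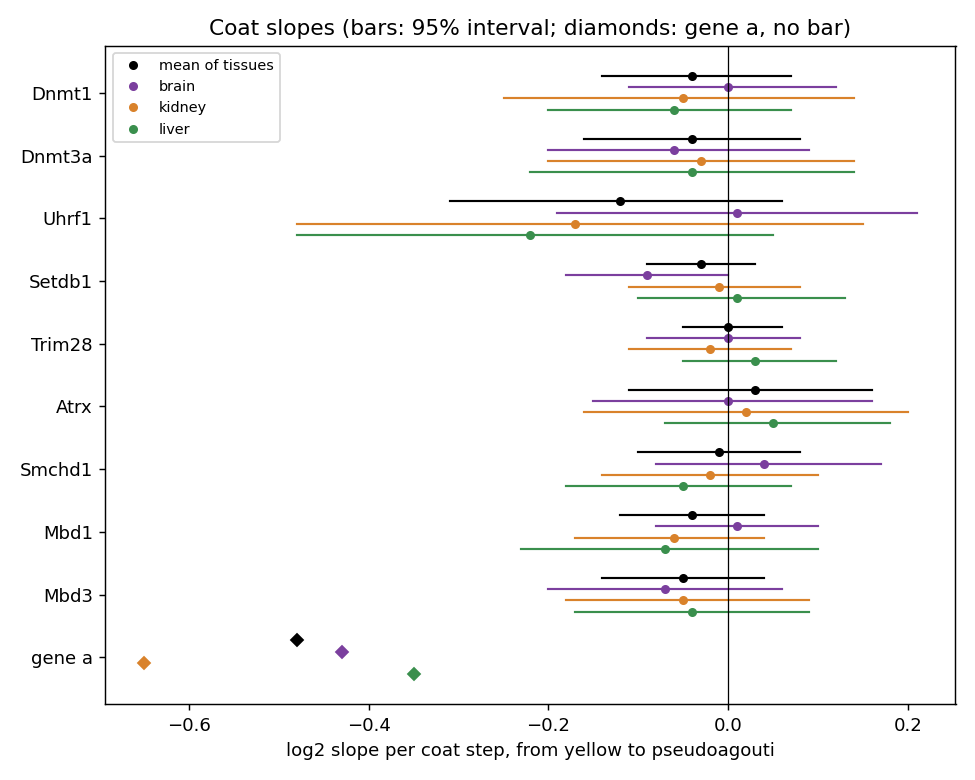
Log2 slope per coat step from yellow to pseudoagouti for the 9 genes, with 95% intervals, on the mean of tissues and in brain, kidney and liver, and the slopes of gene a as diamonds. The intervals of the 9 genes include 0 or end there, and the diamonds lie at -0.35 to -0.65.

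The level of a served as a second measure of the Avy allele. On its log2 level, 0 of 9 genes and 0 of 21 probe sets were called on the mean of tissues or in any tissue, and 0 of all the other tested probe sets. At an unadjusted p under 0.05 there was 1 probe set in liver (1420946_at of Atrx, 0.37 per log2 of a), 1 in kidney (1423063_at of Dnmt3a, 0.20) and 1 in brain (Setdb1, 0.20), with adjusted p of 0.999 or more. Over all tested probe sets the share was 3.82% in liver, 3.03% in kidney and 1.99% in brain, so 1 of 21 is near the background. Of 36 correlations between the 9 genes and a, over 3 tissues and their mean, 1 had an unadjusted p under 0.05. It was Setdb1 in brain, with Pearson's r of 0.80 (permutation p = 0.00621, n = 10 mice) and Spearman's rho of 0.77 (permutation p = 0.0123). It was 0.84 with the number means removed and 0.63 without the 2 mice farthest from the median of a. Setdb1 in brain averaged 845 ± 76.9 for yellow mice, 884 ± 15.6 for slightly mottled mice, 913 ± 79.8 for mottled mice, 719 ± 11 for heavily mottled mice and 682 ± 24.8 for pseudoagouti mice (SD, n = 2 each). Its coat slope there was -0.09 (unadjusted p = 0.0584). In kidney and liver the correlation was 0.22 and 0.03.

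The genes most like each of the 9 over 30 arrays were named by Pearson's r, first on log2 levels and then on deviations from tissue and number means. Each value is the highest or next highest among all tested genes, and no chance level was computed for it. The 30 arrays come from 10 mice, so these values are descriptions. Uhrf1 was nearest to Rrm2, the ribonucleotide reductase subunit (0.97), and Mcm5, part of the replicative helicase (0.96), and in deviations to the condensin genes Smc2 (0.92) and Ncapg2 (0.91). Dnmt1 was nearest to Set (0.86) and in deviations to Racgap1 and Kif11, which act in cell division (0.78 each). Dnmt3a was nearest to Mtcl1 and to the histone demethylase gene Kdm5b (0.95 each), which also led in deviations (0.77). Atrx was nearest to Acap2 and Epc2 (0.96 each) and Smchd1 to Naf1 and Vezf1 (0.93 each), while in deviations Atrx was nearest to Ube4a and Lgr4 (0.80 each) and Smchd1 to Phip (0.83). Mbd3 was nearest to Sdr39u1 (0.89) and in deviations to Got1 (0.83), and Mbd1 to Scyl2 and Lyar (0.79 each) and in deviations to Rrp15 (0.78). Setdb1 and Trim28, with little difference between tissues, had low leading values on levels, 0.57 with Mapkapk3 and 0.66 with Creb3 and Snrpa1, and in deviations 0.70 with Ier2 and 0.77 with Cct3.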

How the data were processed

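RNA of 30 samples was measured on Affymetrix Mouse Genome 430 2.0 arrays. The authors deposited a linear intensity per probe set, made with MAS5 per the submitters' processing notes, whose version is not given in the sources used here. The mean of each array with 2% trimmed at each end was 497.4 to 498.8 over probe sets that are no controls. No detection calls are in the table, so whether a dim probe set was detected cannot be told. The number of arrays limits the precision. Of 45101 probe sets, 64 controls were left out. Symbols came from the platform annotation, which gives 34945 probe sets 1 symbol, 932 several and 9160 none.

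Values were taken as log2(signal + 16). Tests were limited to the 22519 probe sets whose mean in their brightest tissue reached a signal of 242, the median of that value. The linear models of limma 3.58.1 (eBayes with trend; R 4.3.3) were used, with Benjamini-Hochberg adjustment over all tested probe sets (threshold 0.05). Tissues were compared with mouse as a block, since arrays with the same class and number in the labels were taken as the same mouse, and a call needed 1 log2. The mouse effect was a moderated F-test with tissue as a covariate, again without number means. R was the mean SD across mice within a tissue over the mean SD across tissues within a mouse. Coat slopes used steps from 0 (yellow) to 4 (pseudoagouti). Permutation p-values of correlations used 100000 resamples, two-sided, in SciPy 1.17.1.

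The members, lists and tests were chosen with earlier results of these data known. Named were all members, gene a, the 2 nearest genes of each member by each measure, and at most 3 genes per list and comparison, except the examples in the closing section, which were chosen after their values were seen. Marker lists for blood, lymphoid and myeloid, adipose and choroid plexus cells were summed per tissue. Promoters are from RefSeq on GRCm38.p6, with windows for 8 of 9 members shown or searched. Alternatives covered offsets of 1 and 64, filters, quantile normalisation, mouse as a random block, the median over probe sets, the number as a block, pairs of tissues, covariates and each mouse left out. The same fits were checked on simulated data with 200 changed probe sets. A tissue difference of 1.5 was recovered in 98.0% of them, a mouse SD of 0.5 in 64.5% and a number difference of 0.8 in 87.0%. The simulated data held no differences between mice beyond those planted, so coat and number effects may be recovered less often in the real data.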

Additional observations from a re-analysis of the deposited data

Results flagged for a closer look

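Over 63 groups of 10 arrays (21 probe sets in 3 tissues), 2 had a sample far from the others, and chance flags about 1 in 20. Both were the Dnmt3a probe set 1423063_at in heavily mottled mouse 1. Its signal was 744.8 in brain, where the next lowest mouse had 1115.5, and 611 in kidney, where the next had 942.2. The gap was 0.48 and 0.52 of the range of the group. At the probe set that stands for Dnmt3a the same mouse was also lowest in brain (1011) and kidney (459).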

How the results depend on the processing

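For 98 results, 1743 values were recomputed under other settings, and no called value changed sign. Of 19 log2 differences with an adjusted p under 0.05, whatever their size, 1 did: Mbd1 for brain minus liver was 0.09 (adjusted p = 0.408) with the median over its probe sets, against -0.27. The coat and a counts were 0 under every alternative run. Without the minimum of 1 log2, a setting chosen after seeing the data, 4 genes were higher and 2 lower in brain than in liver, 3 higher and 3 lower in brain than in kidney, and kidney against liver gave 5 higher and 1 lower. Quantile normalisation over all arrays left 0 higher in kidney than in liver, with Dnmt3a at 0.86. By the replicate block, the mouse effect was called for 0 genes with the number removed within tissue and 0 with the block over all tissues, and coat slopes and the relation to a had 0 calls with the number as a covariate. The mouse effect was called for 2 genes in liver and kidney, 0 in liver and brain and 1 in kidney and brain, where it was Dnmt3a (adjusted p = 0.0297) and not Atrx (adjusted p = 0.0501). Leaving out 1 mouse gave 1 to 2, with Uhrf1 added without slightly mottled mouse 1 (adjusted p = 0.0439) and Dnmt3a without slightly mottled mouse 2 (adjusted p = 0.0314).

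Number 2 against number 1 on the mean of tissues gave 0 genes higher with the highest signal or the Gapdh ratio as a covariate and 1 to 2 with 1 mouse left out, with Smchd1 added without heavily mottled mouse 2 (adjusted p = 0.0323). In liver it was 0 with the Gapdh ratio. In kidney, where 2 were called, it was 1 with no filter, 1 with quantile normalisation over all arrays, 1 with it within tissue, 0 with either covariate and 0 to 3 with 1 mouse left out. It was 0 without either yellow, either slightly mottled or either pseudoagouti mouse or without heavily mottled mouse 1, 1 without heavily mottled mouse 2 and 3 without mottled mouse 1. In brain it was 0 to 1, with 1 without mottled mouse 1. The cause of these changes was not tested. A gene with a low brain signal, such as Uhrf1, has less signal over background than the others.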

Other observations

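Over the 9 genes and 3 tissues, heavily mottled mouse 1 had the lowest signal of the 10 mice in 9 of 27 pairs of gene and tissue, and no other mouse in more than 3. In kidney it was lowest for Dnmt1 (405), Dnmt3a (459), Uhrf1 (82.2), Smchd1 (766), Trim28 (3536) and Atrx (1579), and highest for Mbd3 (591). This mouse was noticed after the values were seen. How often it was lowest over all tested probe sets was not counted, so these counts do not show a trait of the 9 genes.

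Cbx5, the gene of HP1 alpha, was the 1 gene of the 37 other pathway genes whose mouse effect passed with the number means removed (adjusted p = 0.0492), with a range of 0.82 log2 between mice. Of all tested probe sets 0.417% passed this test. The adjusted p of Cbx5 lies close to the threshold of 0.05, and the gene was not refitted under other settings.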
